A study of Mus musculus with 14 samples.

Results

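The Wnt6 anchor is a Polycomb-covered block of mouse chromosome 1 that holds Wnt6, Wnt10a, Cdk5r2, Fev and Cryba2 and is followed, on the side of higher coordinates, by Cfap65 and then Ihh. Its H3K27me3 was followed over 47 of the 74458 peaks of the count table, of which 4905 lie on chromosome 1. These were all peaks within 5 kb of the RefSeq body of 1 of the 7 genes, whatever their level. Of the 47 peaks, 28 lay inside the stretch that is missing from the Wnt6 deletion libraries (chr1:74768523-74901291, mm10, 132.768 kb) and 19 lay outside it. A further 6 peaks of the stretch were near none of the 7 genes. Wnt6 had 11 peaks, Wnt10a 10, Cdk5r2 4, Fev 4, Cryba2 7, Cfap65 14 and Ihh 3, and 6 peaks were counted for a pair of adjacent genes.

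The libraries were H3K27me3 Cut&Tag profiles of mouse embryonic stem cells (mESCs), cultured with LIF and feeders of the CD1 strain. The method directs the transposase Tn5 to an antibody on chromatin, so that tags accumulate where the mark lies. There were 3 libraries with the Hoxa deletion, 2 with the Hmx1 deletion and 2 with the Wnt6 deletion, each made by CRISPR-Cas9 in the G4 line, a hybrid of the 129/Sv and C57BL/6 strains, and described in the study as homozygous. All 7 libraries carried an anchor deletion and no unedited cells were used here, so that the Hoxa and Hmx1 deletion libraries served as the 5 libraries with an intact Wnt6 locus. The labels name no clones and do not say whether replicates were separate cultures. P-values therefore measure the spread between these libraries, and a difference between deletions cannot be told apart from a difference between clones.

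H3K27me3, trimethylation of lysine 27 on histone H3, is deposited by Polycomb repressive complex 2 and marks silent developmental genes in mESCs. The complex is recruited to CpG-rich promoters, binds the mark it makes and can extend it along neighbouring chromatin. Wnt6 and Wnt10a encode secreted Wnt ligands, Cdk5r2 an activator of the neuronal kinase CDK5, Fev an ETS transcription factor of serotonergic neurons and Cryba2 a crystallin of the lens. Cfap65 encodes a protein of cilia and flagella, and Ihh encodes Indian hedgehog, a ligand that acts in the growth plate of bone.

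RefSeq (GRCm38.p6) bodies on chromosome 1 ran from 74754342 to 74785322 for Wnt6, 74792019 to 74804176 for Wnt10a, 74855029 to 74857732 for Cdk5r2, 74881501 to 74885473 for Fev, 74889934 to 74898842 for Cryba2, 74902071 to 74935626 for Cfap65 and 74945315 to 74951672 for Ihh. The Wnt6 body reaches past the lower end of the stretch, so that Wnt6 has peaks on both sides of that end. The promoter window used for it lies inside the stretch. The table of genes held no exons, so exonic and intronic peaks are not distinguished. Promoter sequence was at hand for 5 of the 7 genes. The 250 bases upstream of an annotated start are shown for 3 of them, with each CG dinucleotide in capitals. These are the 2 that differ most in CpG content among the deleted genes and the retained one. The windows of Wnt6 and Cryba2 lie within the gene bodies given above, so they belong to a start inside the body. Other starts of these genes were not examined. The Wnt6 window lies on the plus strand (chr1:74771642-74771891), that of Cryba2 on the minus strand (chr1:74893144-74893393) and that of Ihh on the minus strand (chr1:74951673-74951922).
Wnt6: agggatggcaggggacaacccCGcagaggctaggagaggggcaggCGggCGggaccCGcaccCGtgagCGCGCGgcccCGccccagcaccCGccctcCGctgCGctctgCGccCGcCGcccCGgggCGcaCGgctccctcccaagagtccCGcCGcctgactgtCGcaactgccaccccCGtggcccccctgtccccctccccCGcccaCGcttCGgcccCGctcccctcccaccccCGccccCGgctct
Cryba2: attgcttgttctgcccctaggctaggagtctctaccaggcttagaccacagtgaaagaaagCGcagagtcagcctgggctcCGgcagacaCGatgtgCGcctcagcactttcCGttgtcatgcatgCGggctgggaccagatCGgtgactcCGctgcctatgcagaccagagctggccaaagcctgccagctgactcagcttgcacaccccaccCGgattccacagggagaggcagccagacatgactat
Ihh: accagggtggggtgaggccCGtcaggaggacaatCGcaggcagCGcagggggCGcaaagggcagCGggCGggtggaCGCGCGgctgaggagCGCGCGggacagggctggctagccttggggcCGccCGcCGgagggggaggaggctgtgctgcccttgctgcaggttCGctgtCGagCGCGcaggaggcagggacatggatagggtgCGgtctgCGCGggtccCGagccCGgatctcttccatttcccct

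CG was counted on the strand shown and reads the same on both strands. The windows held 28 CG for Wnt6, 25 for Cdk5r2, 24 for Ihh, 22 for Fev and 9 for Cryba2, against a median of 6 over 32851 mouse promoters, of which 92.1% held at least 1. All 5 windows overlapped a peak, as did 43.9% of all promoters, and the median over those that overlapped a peak was 16 CG. Over these 5 windows, CG number and H3K27me3 level did not follow the same order. The peak over the Cryba2 promoter, with the fewest CG, had 103 ± 9.21 CPM per kb (SD, n = 5 libraries), which is the count scaled by library size and divided by the width of the peak. That over the Wnt6 promoter, with the most CG, had 54.7 ± 4.19 CPM per kb. The Fev, Ihh and Cdk5r2 promoter peaks had 78.6 ± 4.70, 72.5 ± 3.38 and 51.0 ± 1.67 CPM per kb.

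The anchor genes and Ihh were heavily marked where the locus was intact, and Cfap65 less so. Summed over its peaks, Wnt10a had 75.4, 72.3 and 75.1 CPM per kb in the 3 Hoxa deletion libraries and 67.2 and 73.1 in the 2 Hmx1 deletion libraries (mean 72.6 ± 3.29, n = 5). Cryba2 followed with 71.2, 67.4, 67.9, 64.6 and 72.3 CPM per kb in the same order (68.7 ± 3.10). Ihh had 70.3, 65.0, 65.3, 69.2 and 72.0 (68.4 ± 3.11), although it lies beyond Cfap65. These levels were above those of 97.7% or more of the 16313 genes with a peak, as was that of Fev, which had 69.2, 66.7, 64.0, 66.0 and 72.0 CPM per kb (67.6 ± 3.09). The ranges of these 4 genes overlapped from each to the next. Within libraries, Wnt10a was above Cryba2 in all 5, Cryba2 above Ihh in 4 and Ihh above Fev in 4. In Hmx1 deletion replicate 1, Ihh (69.2) was also above Wnt10a (67.2), so the full order is not fixed beyond the spread.

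Wnt6 and Cdk5r2 formed a lower step. Wnt6 had 56.3, 50.3, 51.6, 50.5 and 51.3 CPM per kb (52.0 ± 2.47) and Cdk5r2 had 47.8, 48.4, 47.4, 45.3 and 49.1 (47.6 ± 1.44). The ranges of both lay below that of Fev and did not overlap each other. Cfap65 was lowest, with 29.8, 30.4, 30.8, 30.9 and 31.9 CPM per kb (30.8 ± 0.791), still above 82.9% of genes. Its level depended on which peaks were assigned to it, and was 17.6 CPM per kb over the peaks that overlap its body, because 2 strong peaks of the stretch lie within 5 kb of that body and are shared with Cryba2. The strongest peak counted for Cfap65 was 1 of these (chr1:74899717-74901291, 66.1 ± 3.48 CPM per kb), and the microRNA gene Mir375 (chr1:74900658-74900721) lies within it.

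**Figure D1:**
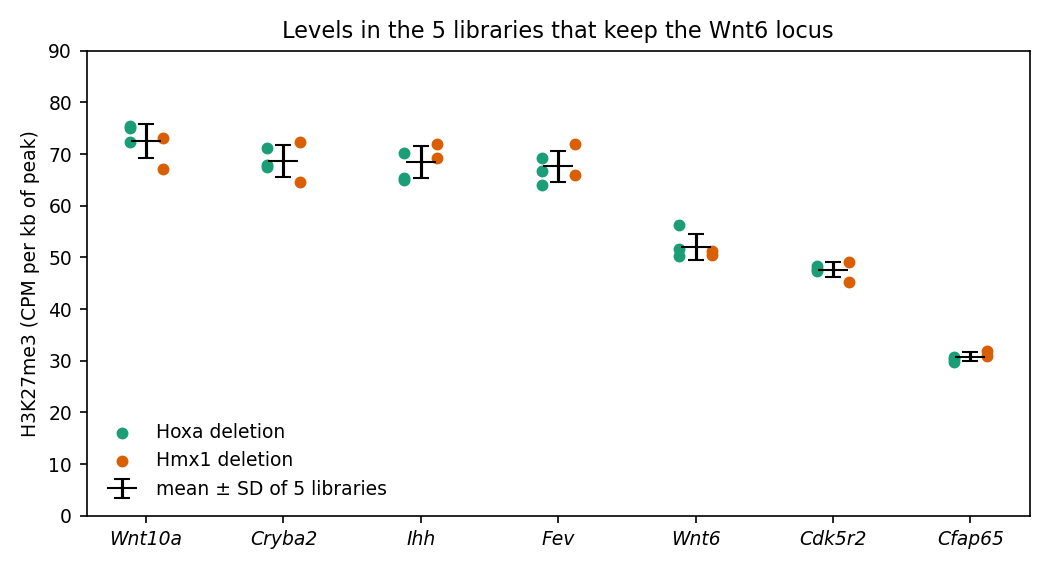
H3K27me3 level of each of the 7 genes (vertical axis, CPM per kb, summed over the peaks within 5 kb of the gene body) in the 3 Hoxa and 2 Hmx1 deletion libraries (points), with the mean ± SD of the 5 libraries (black). Wnt10a, Cryba2, Ihh and Fev lie together near 70, Wnt6 and Cdk5r2 near 50 and Cfap65 near 31 CPM per kb.

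Within genes the mark was uneven. Wnt10a held the strongest of all 47 peaks, at chr1:74802895-74803882, with 129 ± 4.92 CPM per kb, and its weakest peak had 47.2. The strongest peak of Wnt6 was short and variable (chr1:74773170-74773431, 94.2 ± 16.4 CPM per kb), that of Cryba2 covered its promoter (chr1:74892545-74893658), that of Fev covered the Fev promoter (chr1:74884378-74886018), and that of Cdk5r2 lay just past the gene body (chr1:74858242-74858665, 63.0 ± 7.21 CPM per kb). The promoter and part of the body of Ihh lay in a broad peak of 4628 bp (chr1:74947874-74952502), the widest of the 47, whose median width was 586 bp against 476 bp over all peaks. The median level was 59.0 CPM per kb over the 28 peaks of the stretch, 16.0 over the 19 peaks outside it and 7.77 over all peaks. On the map of the 47 peaks, those in the stretch form 3 groups, namely Wnt6 with Wnt10a, Cdk5r2, and Fev with Cryba2. The retained Cfap65 peaks follow, with 44.9 CPM per kb nearest the stretch and 10.7 to 17.4 beyond 10 kb from it. The Ihh block comes last. The 6 peaks of the stretch near none of the 7 genes are not on the map, so the chromatin between the groups is not described.

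**Figure D2:**
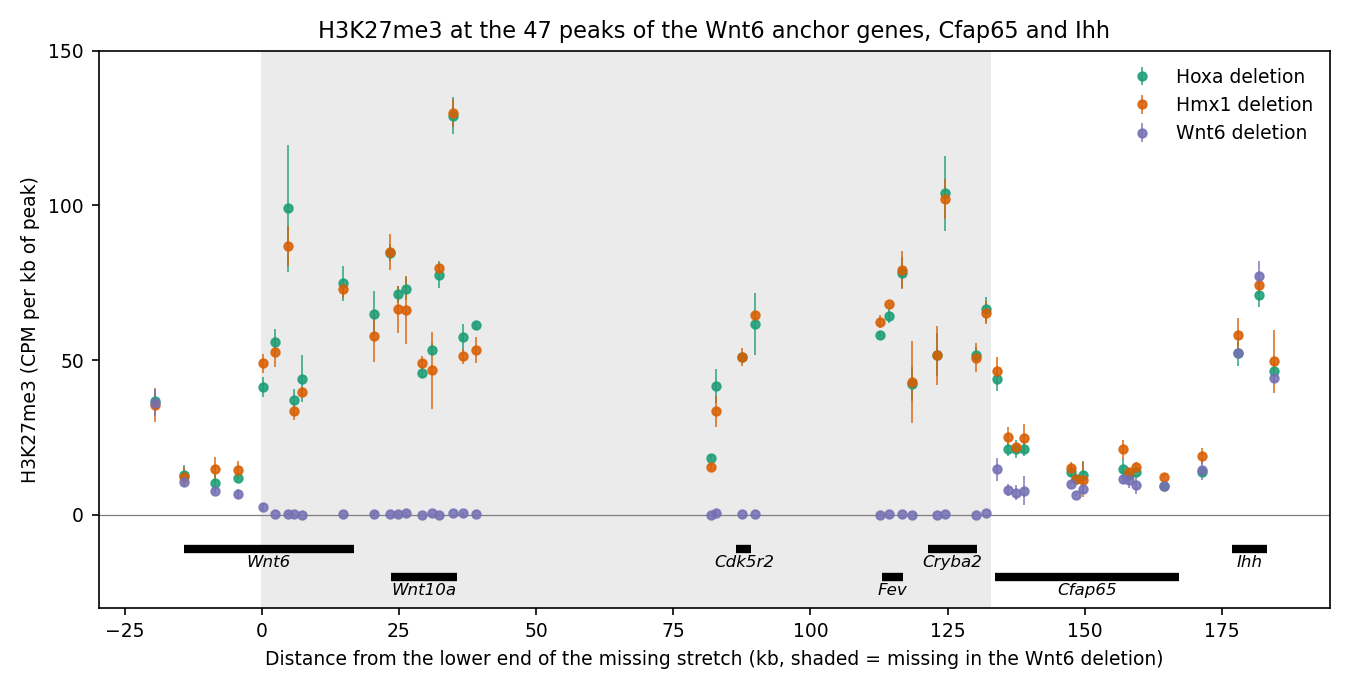
H3K27me3 (vertical axis, CPM per kb of peak, mean ± SD of 3 Hoxa, 2 Hmx1 and 2 Wnt6 deletion libraries) at the 47 peaks, against the distance of the peak centre from the lower end of the missing stretch (horizontal axis, kb). Black bars are RefSeq gene bodies and the shaded area is the stretch of 132.768 kb, where the Wnt6 deletion libraries kept 0.526% of the signal.

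Whether the mark at the Wnt6 locus differed between the Hoxa and the Hmx1 deletion, which remove anchors on other chromosomes, was tested first. The test was edgeR's quasi-likelihood test, fitted to every peak of the table, and calls required a log2 fold change beyond 1 in either direction together with an adjusted p (Benjamini-Hochberg) under 0.05. None of the 47 peaks was called (0 of 47). Of all tested peaks 1.79% were called, a share so small that 0 among 47 peaks says little about this locus. At an unadjusted p under 0.05 there were 2 of 47 peaks, against 19.0% of all tested peaks, and in DESeq2 0 peaks were called and 1 had an unadjusted p under 0.05. Log2 fold changes, Hoxa over Hmx1 deletion, lay between -0.43 and 0.29 with a median of -0.02, and the median of all peaks was -0.00. The lowest adjusted p among the 47 was 0.213 in edgeR. The 2 peaks were the last one counted for Wnt10a (chr1:74806482-74808572, log2 fold change 0.20 ± 0.0945 SE) and one in Cfap65 (chr1:74925232-74925701, -0.43 ± 0.199).

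The Wnt6 deletion libraries lacked the locus their label names. The stretch was defined as peaks that are low in these libraries, so that what they kept in it is a description. Over the 28 peaks inside the stretch, its libraries kept 0.551% and 0.501% of the mean CPM of the other 5 (0.526% ± 0.0354, SD, n = 2), while those 5 libraries lay between 94.6% and 104% of their own mean. The peak at the lower edge of the stretch (chr1:74768523-74768856) kept the most, 5.72%, and the next highest kept 1.45%. The ends of the stretch are the outer limits of peaks and not the edited breakpoints.

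Outside the stretch, H3K27me3 at the end of Cfap65 next to the deletion was lower in the Wnt6 deletion, and Ihh, whose main peak starts 46.583 kb from the stretch, showed no change that passed the test. Of the 19 retained peaks, 3 were called lower and 0 higher against the 5 other libraries. All 3 belong to Cfap65, and the first is also within 5 kb of Cryba2. In this fit, with the other deletions pooled, they were the only peaks called lower among 74407 tested peaks outside the stretch (0.00403%), and 0 were called higher. Other fits called more peaks over the table. A term for each genotype gave 5 of the 19 peaks and 98 in all (0.132%), DESeq2 gave 5 and 10 (0.0134%), and the Hmx1 deletion alone as comparison gave 5 and 36 (0.0484%). Against the Hoxa deletion alone 4 of the 19 peaks and 935 in all (1.26%) were called, and without Hmx1 deletion replicate 2 the counts were 3 and 33 (0.0444%). The 3 peaks were among the calls in each of these fits. At an unadjusted p under 0.05, 9 of the 19 peaks were lower and 0 higher, against 2.51% of all tested peaks that were lower and 5.16% that differed in either direction. In 8 of the 19, both Wnt6 deletion libraries lay below all 5 others, against 4.56% of all tested peaks, and in 0 did both lie above. The median log2 fold change was -0.53 over the 19 peaks and -0.00 over all tested peaks outside the stretch. A lower level in bulk chromatin may be less mark per cell or fewer marked cells, which cannot be told apart here.

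The first called peak (chr1:74902317-74902664), 1.026 kb from the stretch, had 13.8, 16.0 and 16.0 CPM in the Hoxa deletion, 17.2 and 15.0 in the Hmx1 deletion and 6.07 and 4.23 in the Wnt6 deletion. The level with the Wnt6 deletion was 33.0% of that in the others (log2 fold change -1.65 ± 0.193 SE, adjusted p = 1.62e-04, edgeR). The second (chr1:74904233-74904907), at 2.942 kb, had 15.2, 15.1, 12.7, 18.6 and 15.5 CPM in the intact libraries and 4.53 and 6.30 with the Wnt6 deletion, or 35.1% (-1.45 ± 0.196, adjusted p = 0.00120, edgeR). Both Wnt6 deletion libraries were clearly below the range of the others at these peaks.

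The third called peak (chr1:74905707-74906411), at 4.416 kb, had 17.0, 14.8, 13.0, 16.1 and 15.1 CPM in the intact libraries and 3.91 and 6.25 with the Wnt6 deletion, or 33.4% (-1.51 ± 0.199, adjusted p = 9.12e-04, edgeR). A weaker peak beyond it (chr1:74907344-74907614), at 6.053 kb, had 6.23, 6.08, 5.03, 7.61 and 5.82 CPM against 1.23 and 3.00, or 34.5%, and did not pass (-1.34 ± 0.272, adjusted p = 0.165). The groups did not overlap at any of the 4 peaks. The mean shares were alike, but the 2 Wnt6 deletion libraries differed from peak to peak. Replicate 1 was at 38.9%, 29.4%, 25.7% and 20.1% of the intact mean from the nearest to the farthest of the 4, and replicate 2 at 27.1%, 40.9%, 41.1% and 48.8%.

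With 1 Wnt6 deletion library left out, the remaining one was assumed to vary like the other groups. Without replicate 1 only the first peak was called, and without replicate 2 the other 2 peaks were called. The peaks that lost their call kept log2 fold changes of -1.28, -1.28 and -1.36. With all libraries thinned to the smallest 1 peak was called, that at 4.416 kb. Over 17 alternative fits the 3 peaks were called in 15, 15 and 16, with log2 fold changes of -1.88 to -1.36, -1.75 to -1.16 and -2.10 to -1.28 and adjusted p-values up to 0.280, 0.933 and 0.134. The weaker peak at 6.053 kb was called in 4 of the 17, among them DESeq2. The 17 fits share their libraries and are not separate checks, and 2 of them are the same fit.

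Farther into Cfap65 the fold changes were smaller, at peaks with a lower level. The 8 retained Cfap65 peaks beyond 10 kb had log2 fold changes from -0.88 to -0.17, none was called, and their lowest adjusted p was 0.411. The largest of these differences was at 15.350 kb (chr1:74916641-74917174), where the 5 intact libraries had 6.23, 6.57, 5.93, 6.42 and 5.94 CPM and the Wnt6 deletion 3.50 and 3.29, or 54.6%. At 31.372 kb (chr1:74932663-74933260) the groups overlapped and the level was 86.8% of that in the others. Summed, the 8 peaks had 43.3 and 45.2 CPM with the Wnt6 deletion and 54.0, 57.7, 59.2, 65.7 and 65.5 CPM in the other libraries, or 73.2%. The 4 peaks within 10 kb had 15.7 and 19.8 CPM against 52.2, 52.0, 46.7, 59.5 and 51.4, or 33.9%. In the intact libraries the 4 near peaks had means of 21.6 to 44.9 CPM per kb and the 8 far peaks 10.7 to 17.4. With the Wnt6 deletion they had 7.21 to 14.8 and 6.37 to 14.4, where the median of all peaks in the intact libraries was 7.77. No background was subtracted, and whether the far peaks had less signal to lose was not tested.

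Near and far peaks were also compared by ratios within a library. These need no scaling between libraries and were chosen after the values had been seen. The 4 near peaks had 40.1% ± 5.28 (n = 2) of the counts of the 8 far peaks with the Wnt6 deletion and 86.9% ± 7.96 (n = 5) in the other libraries (log2 difference -1.11, exact two-sided permutation p = 0.0476, 0.0635 adjusted over 4 such ratios). The smallest p that 2 against 5 libraries can give is 0.0476. All 12 retained Cfap65 peaks had 14.8% ± 1.81 of the counts of the 3 Ihh peaks with the Wnt6 deletion and 28.2% ± 1.88 otherwise (log2 difference -0.93, same exact p and adjusted p). For the 8 far Cfap65 peaks over Ihh these shares were 10.6% ± 0.896 and 15.1% ± 1.18 (-0.51, same exact p and adjusted p). In each of the 3 ratios both Wnt6 deletion libraries lay below all others. None passed after adjustment, which required all 4 ratios to reach the smallest p. The 4 near peaks include the 3 called lower in these same libraries. The ratios that hold them therefore describe the difference and give no separate support for a change with distance.

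**Figure D3:**
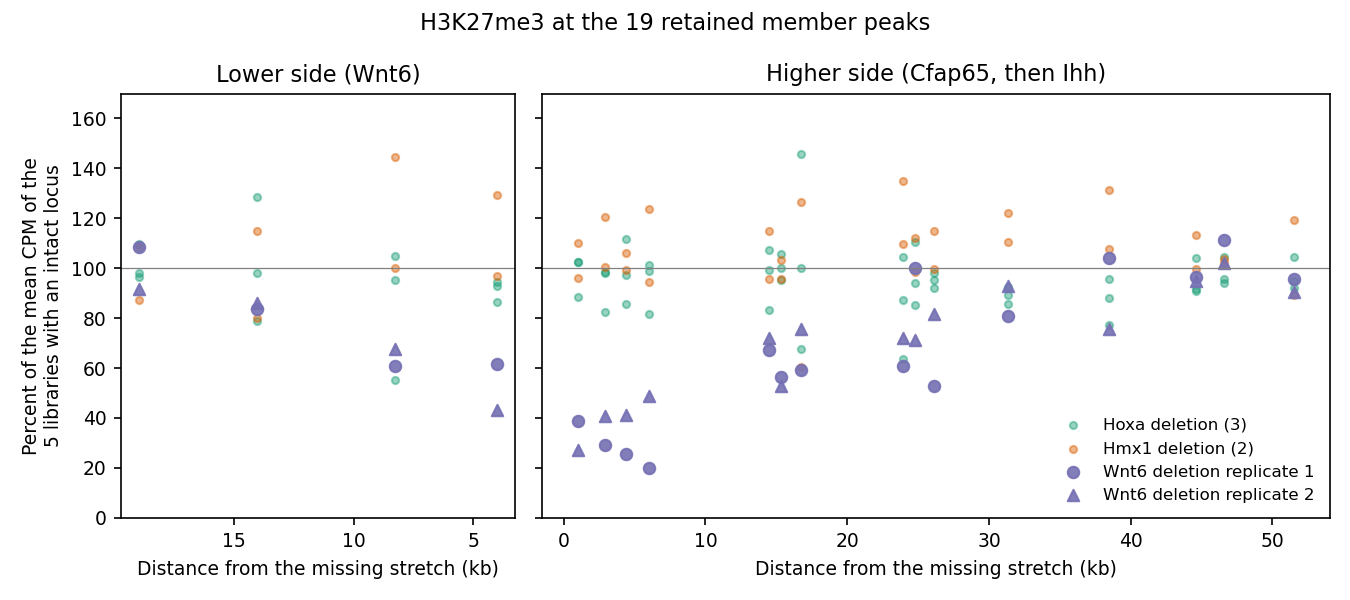
CPM of each of the 7 libraries at the 19 retained peaks as a percentage of the mean of the 5 libraries with an intact locus (vertical axis), against the distance of the peak from the missing stretch (horizontal axis, kb; lower side left, higher side right). The Wnt6 deletion libraries lie between 20% and 50% at the first 4 Cfap65 peaks, approach the others farther out and lie at 90% to 111% of their mean at the 3 Ihh peaks, beyond 44 kb.

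At Ihh no difference passed the test. Its broad promoter peak had 350, 321, 316, 342 and 347 CPM in the intact libraries and 373 and 342 CPM with the Wnt6 deletion (log2 fold change 0.09 ± 0.0685 SE, adjusted p = 0.922, edgeR), so that the groups overlapped. The peak on its lower side (chr1:74945888-74946822) had 46.9, 46.5, 53.2, 50.9 and 58.0 CPM against 49.4 and 48.4 (-0.07). That on its upper side (chr1:74952806-74953104) had 14.9, 13.1, 13.5, 12.7 and 17.0 CPM against 13.6 and 12.9 (-0.12). Over 17 alternative fits none of the 3 was called, and the promoter peak lay between -0.01 and 0.15 on the log2 scale.

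On the lower side only peaks of Wnt6 were retained, and the nearest had the largest difference. At 4.016 kb (chr1:74763872-74764507) the intact libraries had 7.76, 7.60, 7.09, 7.94 and 10.6 CPM and the Wnt6 deletion 5.04 and 3.55, which do not overlap. The level was 52.4% of that in the others (log2 fold change -1.001 ± 0.223 SE) and the peak was not called (adjusted p = 0.358, edgeR). It was called in 3 of the 17 alternative fits, which were DESeq2, a term for each genotype and the Hmx1 deletion alone as comparison, and its log2 fold change ran from -1.25 to -0.60 over all 17. The next peaks, at 8.261, 14.058 and 18.967 kb, were at 64.3%, 84.6% and 100% of the level in the others, and the groups overlapped at each. The last of these (chr1:74748453-74749556) was the strongest retained Wnt6 peak, with 38.6, 43.9, 39.2, 43.4 and 35.0 CPM against 43.4 and 36.7.

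Summed over the retained peaks of a gene, Cfap65 had 106, 110, 106, 125 and 117 CPM in the intact libraries and 59.1 and 64.9 CPM with the Wnt6 deletion, or 55.0% (log2 difference -0.86, exact two-sided permutation p = 0.0476, 0.0952 adjusted over the 4 genes with a retained peak). Cryba2, whose 1 retained peak is the first called Cfap65 peak, gave -1.60 with the same exact p. Wnt6 had 55.1, 59.9, 54.7, 63.2 and 53.8 CPM against 55.1 and 47.2 (-0.17, exact p = 0.190). Over the Wnt6 peaks that overlap the gene body, which leaves out the strong peak at 18.967 kb, the log2 difference was -0.63 (exact p = 0.0476, 0.0714 adjusted over the 3 genes that keep such a peak). Ihh had 412, 381, 383, 405 and 422 CPM against 436 and 403 (0.07, exact p = 0.286). With a smallest exact p of 0.0476, no gene could pass 0.05 after adjustment unless all 4 reached it. Both Wnt6 deletion libraries lay outside the range of the others for Cfap65 and Cryba2, and 1 of them did for Wnt6 and for Ihh.

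**Figure D4:**
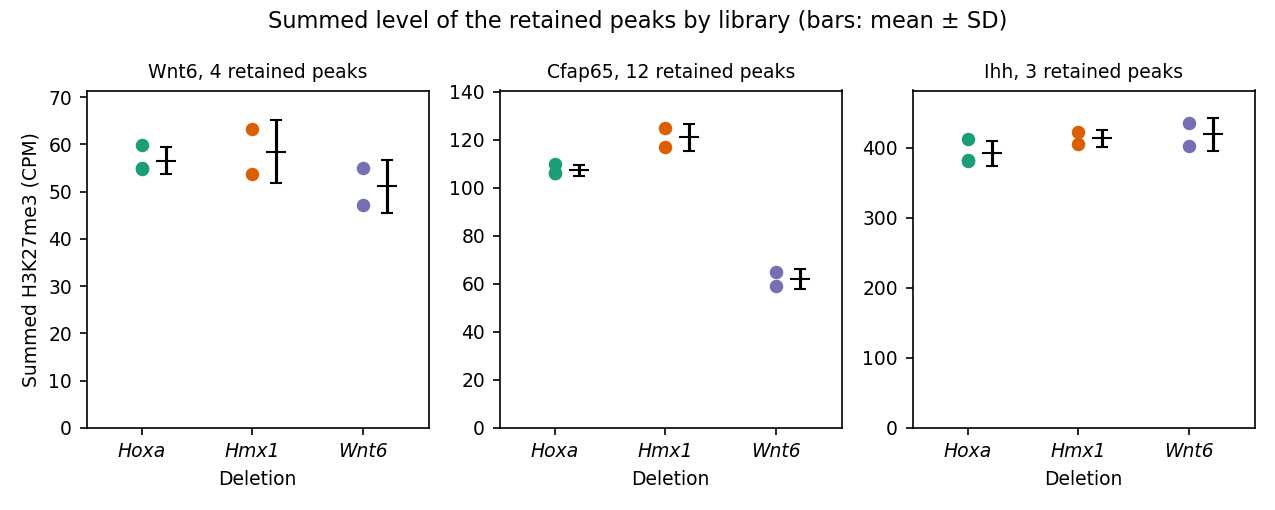
Summed H3K27me3 (vertical axis, CPM, starting at 0) of the retained peaks of Wnt6 (4), Cfap65 (12) and Ihh (3) in each library, by deletion, with the mean ± SD beside the points (n = 3, 2 and 2). The Wnt6 deletion libraries have 59.1 and 64.9 CPM over Cfap65, below all others, and overlap with the others over Ihh.

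All peaks around the stretch, whether near one of the 7 genes or not, were also summed by distance. On the higher side the first 5 kb (3 peaks, all of Cfap65) were at 33.9% of the level in the others and the next bin, from 5 to 25 kb (6 peaks), at 65.8%, and on the lower side the first 5 kb (1 peak) were at 52.4%. The exact permutation p of each of these 3 bins was 0.0476, or 0.127 adjusted over 8 bins. The bin from 5 to 25 kb on the lower side was at 95.9% and that from 25 to 100 kb at 102%. On the higher side, 25 to 100 kb (10 peaks) was at 103%, a sum that consists mostly of Ihh, and without the 3 Ihh peaks it was at 86.0% (32.8 ± 3.77 against 38.1 ± 3.57 CPM, log2 difference -0.22, exact p = 0.143). From 100 to 200 kb, 3 peaks on the higher side were at 64.9% (exact p = 0.143) and 2 on the lower side at 93.8%. The first 5 kb of the higher side had 380% ± 130 of the counts of the first 5 kb of the lower side with the Wnt6 deletion and 573% ± 84.6 otherwise (exact p = 0.0952). A difference between the sides did not pass. With 1 weak peak on the lower side, and a smallest exact p of 0.0476, this test could hardly decide whether the sides differ.

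**Figure D5:**
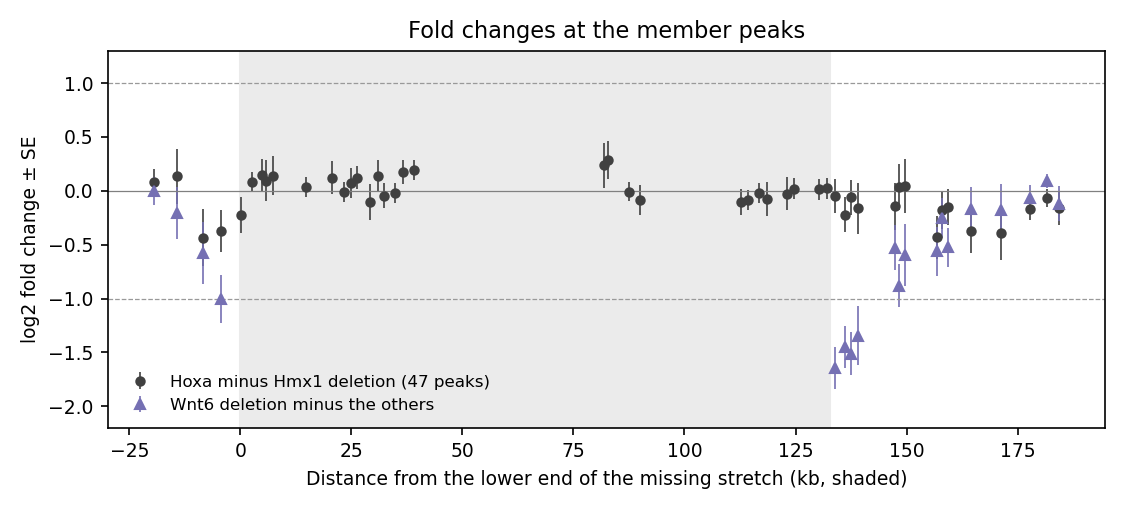
Log2 fold change ± SE from edgeR (vertical axis) against the distance of the peak centre from the lower end of the missing stretch (horizontal axis, kb; shaded, the stretch). Grey circles are the Hoxa over the Hmx1 deletion at 47 peaks, between -0.43 and 0.29, and purple triangles the Wnt6 deletion over the others at the 19 retained peaks, where 3 called peaks of Cfap65 lie at or below -1.45 (dashed lines, ±1).

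Other genes of the same pathways were listed to set the retained genes beside them. The 17 other Wnt ligand genes held 128 tested peaks, of which 0 were called with the Wnt6 deletion and 3 had an unadjusted p under 0.05, with a median log2 fold change of -0.02. With 0.00403% of all peaks called and 5.16% at an unadjusted p under 0.05, counts of 0 and of a few say little about any list of this size. Their levels in the intact libraries ran from 28.4 ± 0.965 CPM per kb for Wnt5b to 76.1 ± 4.73 for Wnt2b with a median of 49.8, so that Wnt10a was near the top of this family and Wnt6 near its middle. The 15 genes listed for Hedgehog signalling, in which Ihh is a ligand, held 64 peaks, with 0 called, 4 at an unadjusted p under 0.05 and a median of -0.03. Among them the ligand gene Shh was highest (64.9 ± 1.98 CPM per kb), below the 68.4 ± 3.11 of Ihh and overlapping it within 1 SD of each. Of 8 other protein-coding genes within 200 kb of the stretch, 6 had peaks, 16 in all, with 0 called, 1 at an unadjusted p under 0.05 and a median of -0.10. They were weakly marked, from 7.90 CPM per kb at Zfp142 and Bcs1l, which share a peak, to 20.4 ± 1.60 at Prkag3.

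The cell type was checked on the mark itself, which is low over active genes. The 6 of 8 pluripotency genes with a peak had a median of 6.20 CPM per kb, from Pou5f1 (5.13) to Esrrb (19.7). The 6 of 8 fibroblast genes with a peak had a median of 29.1, from Col6a1 (6.89) to Twist1 (78.2). The pluripotency genes Tdgf1 and Dppa5a and the fibroblast genes Col3a1 and Lum had no peak and are not in these medians, so the lists were not cleanly separated. Summed over each list, the fibroblast genes had 34.1 to 38.3 CPM per kb in the Wnt6 deletion libraries and 35.4 to 38.7 in the others, and the pluripotency genes 13.9 to 14.3 against 14.8 to 16.6. A part of feeder cells in the differences above was not tested. Library totals ran from 6016500 to 36563541 counts, and the median retained peak of the 7 genes held between 48 and 270 counts in a library.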

How the data were processed

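The authors deposited raw counts over a shared list of peaks for 7 H3K27me3 Cut&Tag libraries, with no normalization. The submitters' processing notes name the build mm10 and Trimmomatic, Bowtie2, SAMtools, Picard, MACS2 and deepTools, without versions or roles. How peaks were called, and whether duplicates were removed or fragments counted, is not given in the sources used here. Whether starts count from 0 or 1 is not stated. The 7 IgG libraries were not analysed here, so that no background was subtracted. The study speaks of 3 replicates per deletion, where the table has 2 for Wnt6 and Hmx1.

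The 7 genes, the gene lists and the tests were chosen with earlier results of these data known. Gene bodies, promoters and names come from RefSeq tables of GRCm38.p6. The missing stretch was the longest run of peaks under 10% of the other libraries' mean in both Wnt6 deletion libraries. Peaks were filtered with filterByExpr by genotype (17 removed, 74441 tested), scaled with TMM and tested with glmQLFit and glmQLFTest in edgeR 4.0.16 (R 4.3.3), with the Wnt6 deletion against the others pooled, and with a term per genotype for Hoxa against Hmx1. Standard errors derive from the F statistic. CPM are TMM-scaled, and log2 sums used a prior count of 2. Sums were compared by exact permutation over 21 assignments. Named peaks were the strongest of each gene, the called ones, the first retained on each side and those at Ihh. Other peaks, such as that at 6.053 kb, were named after their values were seen. A gene that this rule would name is not reported here. On simulated counts for 74458 peaks, 200 were changed by 2 on the log2 scale, a larger change than at any retained peak here. Of these, 100% were recovered in both designs, and 6 (Wnt6) and 10 (Hoxa against Hmx1) of 74258 unchanged peaks were called. The changed peaks were drawn from those with higher counts and all peaks shared 1 dispersion, so recovery at weaker or more variable peaks was not tested. Replicates of a deletion were compared and none were duplicates. Alternatives were DESeq2 1.42.0, other scalings, filters, windows and contrasts, downsampling, a replicate block and each library left out. Plots used matplotlib 3.10.9 in Python 3.11.15.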

Additional observations from a re-analysis of the deposited data

How the results depend on the processing

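With the Wnt6 deletion, 3 retained peaks were called. The count was 5 with a term for each genotype, 5 against the Hmx1 deletion alone and 5 in DESeq2, where the added peaks were those at 4.016 and 6.053 kb, and 4 against the Hoxa deletion alone, and the 3 were among them each time. Over all peaks these fits called 98, 36, 10 and 935. The count was 1 with counts downsampled to the smallest library and between 1 and 3 with each library left out. Replicate numbers do not pair the libraries (correlations of deviations 0.0157, 0.0536 and -0.0128), and the fit with a replicate block gave 3 calls, as did the same 6 libraries without it, a comparison chosen after seeing the data that equals leaving out Hoxa deletion replicate 3. Between Hoxa and Hmx1 no alternative called 1 of the 47 peaks, with 673 to 1395 called over all peaks. The retained Wnt6 sum moved from -0.167 to -0.633 over peaks that overlap the body. Levels over peaks that overlap the gene body were 82.8 CPM per kb for Wnt10a, 51.0 for Cdk5r2, 72.5 for Fev and 17.6 for Cfap65, and the other genes moved by less than the spread. On the lower side, leaving out each library gave log2 differences of -0.157 to 0.039 from 5 to 25 kb and -0.034 to 0.101 from 25 to 100 kb, both turned without Wnt6 deletion replicate 2. From 25 to 100 kb on the higher side the range was -0.216 to 0.089, where -0.216 is the sum without the Ihh peaks, also chosen after seeing the data. In downsampled counts the Ihh peaks at 46.583 and 51.515 kb turned to -0.014 and 0.087. Of 349 results under an alternative, 323 were counted as the same, which meant the same direction and call or a small move. The cause of the others was not tested. That count is generous, since it includes called counts of 2 and 4 against 3 and the Wnt6 sum at -0.633. For sums and bins it rests on direction, because their adjusted p could hardly fall under 0.05. With 2 Wnt6 deletion libraries the exact p cannot fall below 0.0476, which limits all sums.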

Other observations

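The 5 protein-coding genes whose level followed that of the retained Cfap65 peaks most closely over the 7 libraries, with genes within 1 Mb left out, were Spata3 on chromosome 1 (Pearson's r = 0.983), Gmnc (0.951), B430306N03Rik (0.950), Fbxo47 (0.945) and Mael (0.944), the last also on chromosome 1, out of 16260 genes compared. Gmnc takes part in the formation of multiciliated cells and Mael in the silencing of transposons in the germ line. Their summed levels differed between the Wnt6 deletion and the other libraries by -0.66, -0.34, -0.36, -0.50 and -0.40 on the log2 scale, against -0.86 for Cfap65. Negative values follow from choosing genes by likeness to a profile that is low in the Wnt6 deletion, so they are no separate result. These correlations describe libraries that fall into a low pair and a high group of 5 and share depth and scaling, and among so many genes some follow any pattern.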
